A study of Homo sapiens with 18 samples.

Results

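The genes described here carry glucose from the cell surface to lactate, into the pentose phosphate branch, and into and out of glycogen. They were chosen by role, as a list of 34 gene symbols, and 32 of them had a named probe on the Illumina BeadChips used (58 probes, of 20044 named genes in all). The lactate transporters SLC16A1 and SLC16A3 were not analysed here. HT29 and Colo-205 are established human colorectal cancer cell lines, BRAF mutant per the series title, and both were grown as 3-dimensional cultures in Matrigel, a gel of basement membrane proteins. HT29 cells were kept in DMEM and Colo-205 cells in RPMI 1640, both with 10% FCS. From day 5 of culture the cells received PLX4720 at 3 µM, an inhibitor of mutant BRAF kinase, or DMSO, its solvent. The HT29 groups are PLX4720 and DMSO at days 1, 3 and 8, with 2 arrays each, and the Colo-205 groups are PLX4720 and DMSO at days 1, 3 and 10, with 1 array each. The days are read here as days of treatment, which the labels do not state. The labels do not say whether the 2 arrays of an HT29 group came from separate cultures, so p-values measure the spread between these arrays, which may be technical. Each line was hybridised on its own BeadChip.

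Glycolysis splits glucose into pyruvate: hexokinase and phosphofructokinase spend ATP in the upper steps, and phosphoglycerate kinase and pyruvate kinase make it in the lower ones. Lactate dehydrogenase then turns pyruvate into lactate, or pyruvate enters the mitochondria through pyruvate dehydrogenase, which the PDK kinases switch off. The pentose phosphate branch makes NADPH and ribose, glycogen stores glucose, and fructose-1,6-bisphosphatase runs against phosphofructokinase in gluconeogenesis. Many of the lower steps are encoded by sets of paralogs, and several of the paralogs are known targets of the hypoxia-inducible factors.

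On each array 38.3% to 41.4% of the probes had a detection p under 0.01, called above background here. The 2 arrays of an HT29 group correlated at 0.986 to 0.991 over 12675 genes, as a description of the arrays. All values below are normalized log2 intensities, or differences between them, given as ± SE of the limma fit, with p-values adjusted by Benjamini-Hochberg over all genes tested. Of the 32 genes, 27 were above background on every array. The MAPK output gene DUSP6, a check of the drug, was lower with PLX4720, with differences of -2.53 ± 0.17, -2.21 ± 0.17 and -2.33 ± 0.17 at HT29 days 1, 3 and 8 and -2.13 ± 0.17 in Colo-205. It is 1 of a list of 6 MAPK output genes, of which 4 were lower and 0 higher on each HT29 day and in Colo-205. The list medians were -1.56, -1.32 and -1.08 at HT29 days 1, 3 and 8. For 2 of the 6 the HT29 drug effect was higher at day 8 than at day 1. Of 9 colon epithelial markers, 7 to 9 were above background on each array. Of 6 leukocyte markers 3 or 4 were above background, and their summed linear level was 15181 to 16871 with PLX4720 against 12456 to 15266 with DMSO in HT29, and 17516 to 19582 with PLX4720 against 12243 to 14023 with DMSO in Colo-205. PTPRC and CD3E, the defining leukocyte and T cell genes, were above background on no array. Of 8 fibroblast or smooth muscle markers 1 to 4 were above background, at a sum of 482 to 685 with PLX4720 against 281 to 492 with DMSO in HT29 and 231 to 240 with PLX4720 against 229 to 264 with DMSO in Colo-205. COL3A1 and PDGFRB were above background on no array. Of 3 endothelial markers, PECAM1 was above background on 1 array and the others on none. The part of these markers in the results was not tested. In bulk RNA, fewer cells of a type and less RNA per cell cannot be told apart.

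With PLX4720, 8 of the 31 genes tested in HT29 were lower than with DMSO at day 1 and 19 at day 8, most of them glycolytic. On their brightest probes SLC2A1, HK2, PFKP, PGAM1, ENO1, PKM and LDHA were lower on all 3 days, while PYGL and FBP1 were higher on all 3. At day 1 the 8 lower stood beside 6 higher, against a background over all 12675 genes tested of 10.8% lower and 11.8% higher. At day 3 there were 14 lower and 3 higher, against 7.53% lower and 8.95% higher over all genes. At day 8 the 19 lower stood beside 4 higher, against 8.62% lower and 7.34% higher over all genes. The median difference of the 31 was -0.10, -0.46 and -0.99 at days 1, 3 and 8, beside 0.00, 0.01 and 0.01 over all genes. The day 3 count rests on every array of that day: it was 8 without the first and 9 without the second PLX4720 array, and 7 without either DMSO array. SLC2A3 was not tested in any comparison.

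**Figure D1:**
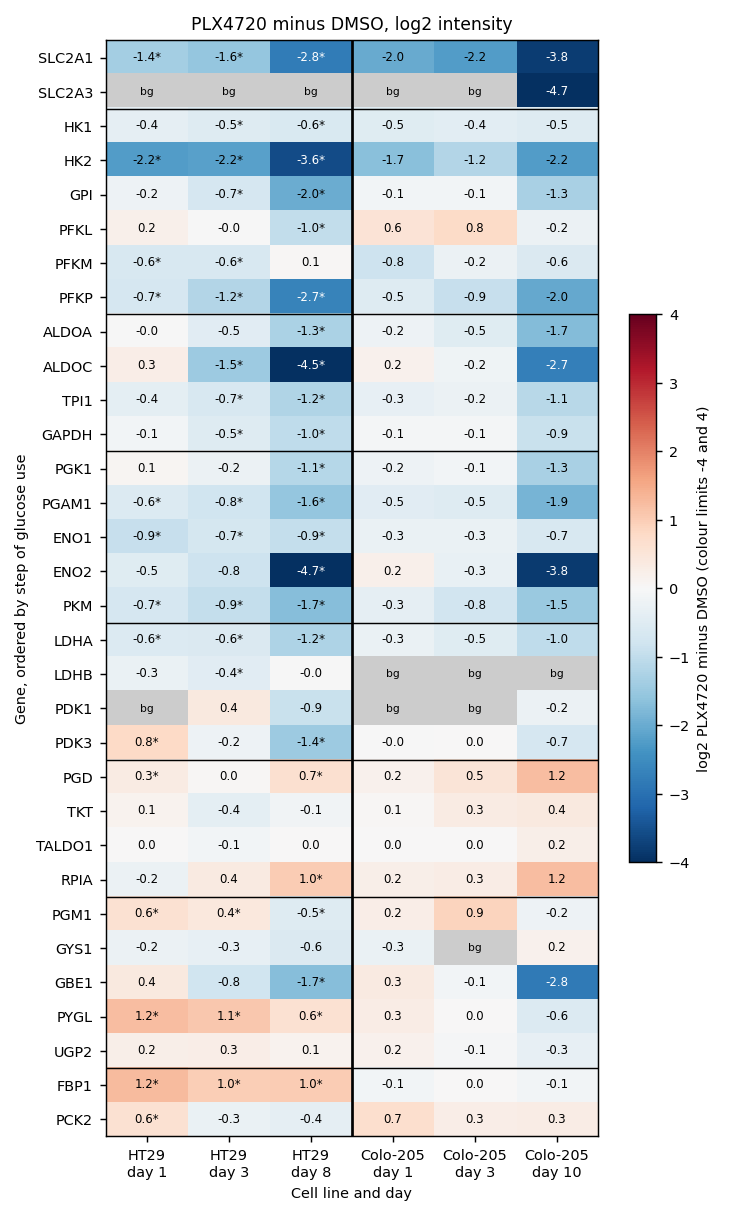
PLX4720 minus DMSO (log2) for each gene, in rows ordered by role, at HT29 days 1, 3 and 8 and Colo-205 days 1, 3 and 10, with an asterisk where the HT29 test passed (adjusted p under 0.05) and grey where both groups were at background. Colo-205 single days and SLC2A3 have no test. The HT29 day 8 and Colo-205 day 10 columns hold the deepest differences, ENO2 and ALDOC among them, while FBP1 and PYGL are higher on all 3 HT29 days.

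The glucose carrier gene SLC2A1 was lower with PLX4720 on every day in HT29. It encodes GLUT1, the widely expressed glucose carrier. SLC2A1 read 11.55 and 11.21 with PLX4720 against 12.78 and 12.74 with DMSO at day 1, 11.08 and 11.07 with PLX4720 against 12.63 and 12.64 with DMSO at day 3, and 10.99 and 10.90 with PLX4720 against 13.84 and 13.67 with DMSO at day 8. The groups did not overlap on any day, and the DMSO arrays were highest at day 8. The differences were -1.37 ± 0.13 (adjusted p = 0.0002), -1.56 ± 0.13 (adjusted p = 0.000171) and -2.81 ± 0.13 (adjusted p = 4.22e-06). SLC2A3, which encodes the high-affinity carrier GLUT3, was above background on none of the 12 HT29 arrays.

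HK2, the hexokinase that is induced in many tumours and binds mitochondria, was the member with the deepest difference of the upper steps. HK2 read 6.80 and 6.90 with PLX4720 against 8.95 and 9.21 with DMSO at day 1, 6.67 and 6.53 with PLX4720 against 8.69 and 8.83 with DMSO at day 3, and 6.09 and 6.01 with PLX4720 against 9.68 and 9.61 with DMSO at day 8. HK2 with PLX4720 was lowest at day 8, and the groups were far apart on each day. The differences were -2.23 ± 0.13 (adjusted p = 1.73e-05), -2.16 ± 0.13 (adjusted p = 2.53e-05) and -3.59 ± 0.13 (adjusted p = 8.9e-07). A second, dimmer HK2 probe gave -1.17 ± 0.16, -1.26 ± 0.16 and -1.72 ± 0.16, lower on each day but by less.

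HK1, the hexokinase most cells express, differed by less. HK1 read 11.19 and 10.94 with PLX4720 against 11.34 and 11.54 with DMSO at day 1, 10.91 and 10.98 with PLX4720 against 11.42 and 11.52 with DMSO at day 3, and 11.24 and 11.16 with PLX4720 against 11.82 and 11.79 with DMSO at day 8. Its PLX4720 arrays were below its DMSO arrays on each day, and the test passed at day 3 (-0.52 ± 0.13) and day 8 (-0.61 ± 0.13), not at day 1 (-0.37 ± 0.13). Its second detected probe gave 0.46 at day 3, the opposite direction, and -0.15 ± 0.29 at day 8, and passed on neither day. GPI, which turns glucose 6-phosphate into fructose 6-phosphate, was lower at day 3 (-0.68 ± 0.15) and day 8 (-2.00 ± 0.15). GPI read 11.18 and 11.25 with PLX4720 against 11.30 and 11.52 with DMSO at day 1, 10.66 and 10.61 with PLX4720 against 11.16 and 11.47 with DMSO at day 3, and 10.65 and 10.47 with PLX4720 against 12.44 and 12.68 with DMSO at day 8. GPI was high on both DMSO arrays of day 8 alone, and its day 1 difference was -0.19 ± 0.15 and did not pass.

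The phosphofructokinases set the committed step, and the genes of its 3 isoforms had separate courses. PFKP, the platelet isoform, was lower on all days, with differences of -0.67 ± 0.11 (adjusted p = 0.00258), -1.16 ± 0.11 (adjusted p = 0.00027) and -2.67 ± 0.11 (adjusted p = 1.46e-06). PFKP read 10.43 and 10.38 with PLX4720 against 11.10 and 11.06 with DMSO at day 1, 10.04 and 9.89 with PLX4720 against 11.10 and 11.15 with DMSO at day 3, and 9.37 and 9.34 with PLX4720 against 12.08 and 11.97 with DMSO at day 8. PFKP with PLX4720 was lower at each later day and PFKP with DMSO was highest at day 8. PFKL, the liver isoform, passed the test at day 8 (-0.99 ± 0.22, adjusted p = 0.014) and not at days 1 and 3. PFKL read 7.99 and 7.90 with PLX4720 against 7.49 and 8.02 with DMSO at day 1, 7.94 and 7.89 with PLX4720 against 7.73 and 8.12 with DMSO at day 3, and 7.87 and 7.70 with PLX4720 against 8.54 and 8.99 with DMSO at day 8. Its groups overlapped at days 1 and 3. PFKM, the muscle isoform, had the opposite course. PFKM read 8.86 and 8.68 with PLX4720 against 9.48 and 9.32 with DMSO at day 1, 8.71 and 8.83 with PLX4720 against 9.46 and 9.37 with DMSO at day 3, and 8.90 and 8.95 with PLX4720 against 8.97 and 8.77 with DMSO at day 8. It was lower at day 1 (-0.63 ± 0.13, adjusted p = 0.00758) and day 3 (-0.64 ± 0.13, adjusted p = 0.0103), and at day 8 its groups overlapped, with a difference of 0.06 ± 0.13 (adjusted p = 0.815).

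In the middle of the pathway no gene passed limma's test at day 1, and 0 had an unadjusted p under 0.05; 3 of the 4 were lower at day 3, and all 4 were lower at day 8. Aldolase cuts fructose 1,6-bisphosphate into 2 trioses, and both its isoforms here, ALDOC and ALDOA, were lower at day 8. ALDOC read 8.09 and 8.05 with PLX4720 against 7.89 and 7.69 with DMSO at day 1, 8.11 and 8.14 with PLX4720 against 9.30 and 9.85 with DMSO at day 3, and 7.90 and 8.21 with PLX4720 against 12.54 and 12.56 with DMSO at day 8. With PLX4720 ALDOC stayed between 7.90 and 8.21 at all days, while the DMSO arrays were higher at day 3 and far higher at day 8. The differences were 0.28 ± 0.18 at day 1, which did not pass, -1.46 ± 0.18 (adjusted p = 0.00123) at day 3 and -4.50 ± 0.18 (adjusted p = 1.46e-06) at day 8. ALDOA, the main isoform of most tissues, was lower at day 8 (-1.27 ± 0.24, adjusted p = 0.0074) and did not pass at days 1 and 3. ALDOA read 12.31 and 12.28 with PLX4720 against 12.53 and 12.08 with DMSO at day 1, 11.82 and 11.83 with PLX4720 against 12.29 and 12.28 with DMSO at day 3, and 11.55 and 11.31 with PLX4720 against 13.09 and 12.31 with DMSO at day 8. The 2 DMSO arrays of ALDOA at day 8 lay apart from each other, yet both were above the PLX4720 arrays. A second ALDOA probe did not pass at day 1 (-0.13 ± 0.13) and was lower at day 3 (-0.71 ± 0.13, adjusted p = 0.00741) and day 8 (-2.01 ± 0.13), so the day 3 call depends on the probe. TPI1, which interconverts the trioses, was lower at day 3 (-0.65 ± 0.17) and day 8 (-1.21 ± 0.17). A second TPI1 probe did not pass at day 3 (-0.53 ± 0.16) and was lower at day 8 (-1.17 ± 0.16), so its day 3 call depends on the probe too. GAPDH, which oxidises glyceraldehyde 3-phosphate, was lower at day 3 (-0.51 ± 0.11) and day 8 (-1.01 ± 0.11).

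The 5 genes of the lower, ATP-yielding steps had 3 lower at day 1, 3 at day 3 and all 5 at day 8. ENO2, the enolase first described in neurons, had a difference at day 8 that was wide on the fitted scale but rests on dim PLX4720 arrays. On HT29 arrays ENO2 read 4.63 and 4.52 with PLX4720 against 4.48 and 5.61 with DMSO at day 1, 4.59 and 4.36 with PLX4720 against 5.33 and 5.27 with DMSO at day 3, and 4.46 and 4.91 with PLX4720 against 9.01 and 9.67 with DMSO at day 8. Both PLX4720 arrays of days 1 and 3 and the first of day 8 were not above background, as was the first DMSO array of day 1, so ENO2 stood well above background at day 8 with DMSO alone. The fitted day 8 difference was -4.66 ± 0.34 (adjusted p = 3.83e-05), with 1 of the 2 PLX4720 arrays above background, so its order beside ALDOC is not settled, and those of days 1 and 3 did not pass. ENO1, the enolase of most tissues, differed by about the same amount on each day. ENO1 read 12.62 and 12.67 with PLX4720 against 13.45 and 13.67 with DMSO at day 1, 12.73 and 12.85 with PLX4720 against 13.58 and 13.42 with DMSO at day 3, and 12.83 and 12.74 with PLX4720 against 13.73 and 13.73 with DMSO at day 8. Its groups did not overlap on any day, and its differences were -0.91 ± 0.12, -0.71 ± 0.12 and -0.95 ± 0.12, all past the threshold. PKM, whose splice forms include the M2 pyruvate kinase, was lower on each day (-0.67 ± 0.12, -0.94 ± 0.12 and -1.71 ± 0.12), and so was PGAM1, phosphoglycerate mutase (-0.56 ± 0.17, -0.79 ± 0.17 and -1.55 ± 0.17). The other PGAM1 probe did not pass at day 1 (-0.43 ± 0.26) and was lower at day 3 (-0.94 ± 0.26) and day 8 (-1.13 ± 0.26). PGK1, the first ATP-yielding kinase, was lower at day 8 (-1.13 ± 0.15, adjusted p = 0.00114). Its differences at days 1 and 3, 0.09 ± 0.15 and -0.23 ± 0.15, did not pass.

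Promoter sequences are shown for 3 of these genes because 2 of them, ENO2 and ALDOC, had the widest fitted differences at HT29 day 8, and the third, SLC2A1, differed on every day. Each is the 250 bases before the RefSeq start (GRCh38.p14), 5′ to 3′ on the gene's strand. The capitals mark ACGTG read on either strand, a form of the core of the hypoxia response element. Other forms of that core were not searched for. An ACGTG read on the other strand appears as CACGT, and CACGTG, the E-box, holds one on each strand. ENO2 lies at chr12:6914330-6914579 on the plus strand, ALDOC at chr17:28576896-28577145 on the minus strand and SLC2A1 at chr1:42958869-42959118 on the minus strand.
ENO2: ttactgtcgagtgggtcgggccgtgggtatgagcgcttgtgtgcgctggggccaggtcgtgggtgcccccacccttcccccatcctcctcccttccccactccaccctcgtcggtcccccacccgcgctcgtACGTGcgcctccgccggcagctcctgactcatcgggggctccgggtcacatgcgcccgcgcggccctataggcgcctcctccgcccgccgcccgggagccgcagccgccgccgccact
ALDOC: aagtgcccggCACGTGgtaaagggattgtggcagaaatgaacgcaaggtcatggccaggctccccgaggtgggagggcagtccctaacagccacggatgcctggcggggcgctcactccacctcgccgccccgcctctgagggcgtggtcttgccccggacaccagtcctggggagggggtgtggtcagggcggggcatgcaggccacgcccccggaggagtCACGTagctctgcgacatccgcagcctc
SLC2A1: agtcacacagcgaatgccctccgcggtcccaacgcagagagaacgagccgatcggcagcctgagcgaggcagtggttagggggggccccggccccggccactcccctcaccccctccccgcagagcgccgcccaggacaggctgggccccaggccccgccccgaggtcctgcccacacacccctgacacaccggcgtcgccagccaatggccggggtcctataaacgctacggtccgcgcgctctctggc
The ENO2 window holds 1 match, which starts 118 bases before the start site. The ALDOC window holds 3, in 1 CACGTG at its far end and in a CACGT whose match begins 28 bases before the start site. The SLC2A1 window holds none. Over all 35116 RefSeq windows of this length, 18.5% hold ACGTG on either strand. Windows matched 31 of the genes described here, and 20 of their 55 windows (36.4%) hold it. Of the windows of genes lower at HT29 day 8 it is 16 of 35 (45.7%), and of the other tested members 4 of 20 (20.0%). CACGTG is in 6.34% of all windows and 5 of the 55 (9.09%). A gene can have several windows that overlap, and a match is a description of the letters only.

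At the end of the pathway, the lactate dehydrogenase paralogs differed in course. LDHA, the M subunit, was lower on every day. LDHA read 13.08 and 13.03 with PLX4720 against 13.69 and 13.52 with DMSO at day 1, 13.03 and 12.91 with PLX4720 against 13.41 and 13.70 with DMSO at day 3, and 12.93 and 12.87 with PLX4720 against 14.26 and 13.99 with DMSO at day 8. The LDHA groups did not overlap, and the differences were -0.55 ± 0.14 (adjusted p = 0.0232), -0.58 ± 0.14 (adjusted p = 0.0243) and -1.23 ± 0.14 (adjusted p = 0.000539). One of its other 2 probes did not pass at day 1 (-0.39 ± 0.19) or day 3 (-0.66 ± 0.19). LDHB, the H subunit, was lower at day 3 (-0.44 ± 0.11, adjusted p = 0.0255) and did not pass at days 1 and 8. LDHB read 12.34 and 12.35 with PLX4720 against 12.53 and 12.70 with DMSO at day 1, 12.12 and 12.10 with PLX4720 against 12.58 and 12.51 with DMSO at day 3, and 11.80 and 11.77 with PLX4720 against 11.78 and 11.85 with DMSO at day 8. Both groups of LDHB were lowest at day 8, where they overlapped and the difference was -0.03 ± 0.11 (adjusted p = 0.892).

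The PDK kinases, which switch off pyruvate dehydrogenase, were read near or on the edge of background in one case and on 2 unlike probes in the other. PDK1 in HT29 was above background on 1 PLX4720 array of day 3 (5.24) and 1 DMSO array of day 8 (5.57), and on no other array, where it read between 4.26 and 4.86. None of its day comparisons of drug and solvent passed. PDK3 read 7.46 and 7.23 with PLX4720 against 6.47 and 6.62 with DMSO at day 1, 6.83 and 6.97 with PLX4720 against 6.94 and 7.24 with DMSO at day 3, and 6.86 and 6.70 with PLX4720 against 8.12 and 8.34 with DMSO at day 8. PDK3 with PLX4720 was above DMSO at day 1 and below it at day 8, with overlap at day 3. The differences were 0.80 ± 0.15 (adjusted p = 0.00584) and -1.45 ± 0.15 (adjusted p = 0.000294). The other PDK3 probe gave -0.28 ± 0.13 (adjusted p = 0.182) at day 1, -1.14 ± 0.13 at day 3 and -1.09 ± 0.13 at day 8, so both probes were lower at day 8 and the day 1 direction holds for 1 of them.

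Of the 4 pentose phosphate genes tested, none was lower with PLX4720 on any day, 1 was higher at day 1 and 2 were higher at day 8. At an unadjusted p under 0.05 in the limma fit, 1 was lower and 1 was higher at day 3. PGD makes NADPH and ribulose 5-phosphate in the oxidative arm. PGD read 10.73 and 10.81 with PLX4720 against 10.42 and 10.44 with DMSO at day 1, 10.28 and 10.24 with PLX4720 against 10.25 and 10.18 with DMSO at day 3, and 10.23 and 10.11 with PLX4720 against 9.56 and 9.47 with DMSO at day 8. The PLX4720 arrays were higher at day 1 (0.34 ± 0.11, adjusted p = 0.0485) and day 8 (0.65 ± 0.11, adjusted p = 0.0034) and overlapped the DMSO arrays at day 3. RPIA converts ribulose 5-phosphate to ribose 5-phosphate. RPIA read 9.28 and 9.31 with PLX4720 against 9.55 and 9.50 with DMSO at day 1, 9.91 and 9.77 with PLX4720 against 9.42 and 9.55 with DMSO at day 3, and 9.86 and 9.88 with PLX4720 against 8.95 and 8.73 with DMSO at day 8. RPIA was below DMSO on both arrays at day 1 and above it at days 3 and 8, and of these differences the day 8 one passed (1.03 ± 0.12, adjusted p = 0.000547). TKT and TALDO1, which pass carbon between the pentose and glycolytic sugars, differed by between -0.39 and 0.14 and did not pass on any day.

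Of the 5 glycogen genes, 2 were higher at days 1 and 3, and at day 8 1 was higher and 2 were lower. PYGL, the liver form of glycogen phosphorylase, which frees glucose 1-phosphate, was higher on every day. PYGL read 10.04 and 9.94 with PLX4720 against 8.81 and 8.73 with DMSO at day 1, 9.70 and 9.65 with PLX4720 against 8.51 and 8.70 with DMSO at day 3, and 9.61 and 9.61 with PLX4720 against 9.00 and 9.01 with DMSO at day 8. The groups did not overlap, and the difference was 1.22 ± 0.11 (adjusted p = 0.000143), 1.07 ± 0.11 (adjusted p = 0.000494) and 0.61 ± 0.11 (adjusted p = 0.00647). GBE1, the branching enzyme, was lower at day 8 (-1.71 ± 0.25, adjusted p = 0.00199). GBE1 read 6.26 and 6.38 with PLX4720 against 5.60 and 6.27 with DMSO at day 1, 5.85 and 5.54 with PLX4720 against 6.27 and 6.70 with DMSO at day 3, and 5.64 and 5.66 with PLX4720 against 7.61 and 7.10 with DMSO at day 8. GBE1 groups overlapped at day 1, and its highest readings were both DMSO arrays of day 8. PGM1, which joins glycogen to glycolysis through glucose 6-phosphate, changed direction. PGM1 read 11.23 and 11.08 with PLX4720 against 10.63 and 10.46 with DMSO at day 1, 11.33 and 11.42 with PLX4720 against 10.93 and 10.96 with DMSO at day 3, and 11.38 and 11.33 with PLX4720 against 11.91 and 11.84 with DMSO at day 8. It was higher at day 1 (0.61 ± 0.12, adjusted p = 0.0055) and day 3 (0.43 ± 0.12, adjusted p = 0.035) and lower at day 8 (-0.52 ± 0.12, adjusted p = 0.0151), with no overlap on any day. PGM1 with PLX4720 lay between 11.08 and 11.42 at all days. GYS1, muscle-type glycogen synthase, and UGP2, which makes UDP-glucose, did not pass on any day on their brightest probes, with differences of -0.24, -0.33 and -0.58 for GYS1 and 0.22, 0.28 and 0.15 for the brightest UGP2 probe. The 4 UGP2 probes disagreed at day 8, where another was lower (-1.10 ± 0.19, adjusted p = 0.00551), one gave -0.76 ± 0.25 (adjusted p = 0.0809) and the last 0.15 ± 0.17.

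Of the gluconeogenic genes, FBP1 was higher on all days. It encodes fructose-1,6-bisphosphatase. FBP1 read 11.75 and 11.79 with PLX4720 against 10.52 and 10.52 with DMSO at day 1, 11.89 and 11.85 with PLX4720 against 10.79 and 10.96 with DMSO at day 3, and 12.12 and 11.99 with PLX4720 against 11.05 and 10.99 with DMSO at day 8. Both PLX4720 arrays were about a log2 unit above DMSO on each day, by 1.25 ± 0.11 (adjusted p = 0.000121), 0.99 ± 0.11 (adjusted p = 0.000664) and 1.03 ± 0.11 (adjusted p = 0.000328). PCK2 encodes the mitochondrial phosphoenolpyruvate carboxykinase. PCK2 read 9.05 and 9.04 with PLX4720 against 8.45 and 8.45 with DMSO at day 1, 8.52 and 8.66 with PLX4720 against 8.84 and 8.90 with DMSO at day 3, and 8.68 and 8.54 with PLX4720 against 9.02 and 8.94 with DMSO at day 8. It was higher at day 1 (0.60 ± 0.11, adjusted p = 0.00506), and the lower readings with PLX4720 at days 3 and 8 did not pass (-0.28 ± 0.11 and -0.37 ± 0.11). Its other probes disagreed in direction and did not pass at day 3 (0.41 ± 0.17 and -0.44 ± 0.18) or day 8 (-0.29 ± 0.17 and 0.22 ± 0.18).

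**Figure D2:**
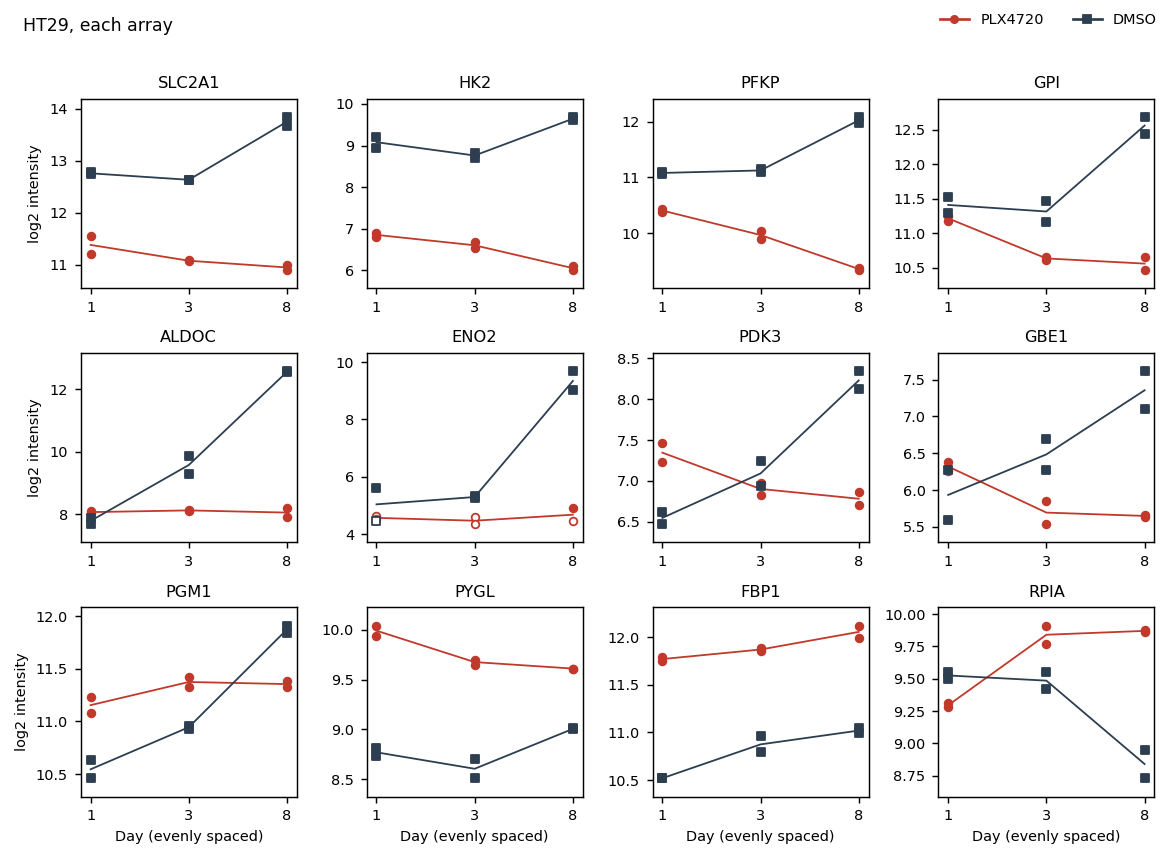
Normalized log2 intensity (y axis) on each HT29 array by day (x axis, days 1, 3 and 8) for selected genes; points are arrays (open where not above background) and lines join group means, PLX4720 and DMSO in separate colours, with panels on separate scales. At day 8 with DMSO, ALDOC read 12.54 and 12.56 and ENO2 read 9.01 and 9.67, while FBP1 and PYGL with PLX4720 lie above DMSO on every day.

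The drug effect itself differed between day 8 and day 1 for 20 of the 31 genes. It was lower at day 8 for 18 and higher for 2, against 8.91% lower and 7.05% higher over all genes, and the median was -0.97 beside -0.01. ALDOC (-4.77 ± 0.26, adjusted p = 2.7e-05), PDK3 (-2.25 ± 0.22, adjusted p = 0.00031), GBE1 (-2.09 ± 0.36, adjusted p = 0.00525), PFKP (-1.99 ± 0.15, adjusted p = 0.000123) and GPI (-1.80 ± 0.21, adjusted p = 0.000896) had the deepest shifts among members above background in all 4 groups. For ENO2 both groups with PLX4720 held arrays at background, and the fitted shift of -4.19 ± 0.49 is no bound. The 2 members whose effect was higher at day 8 were RPIA (1.26 ± 0.17, adjusted p = 0.00168) and PFKM (0.69 ± 0.18, adjusted p = 0.0318). Without the first DMSO or the second PLX4720 array of day 1, the second DMSO array of day 8 or either PLX4720 array of day 8, 1 of the 2 was called. For ENO1 the effect on the 2 days differed by -0.04 ± 0.17 (adjusted p = 0.917), and for FBP1 by -0.21 ± 0.16 (adjusted p = 0.409).

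The DMSO cultures of HT29 changed over time by themselves, mostly between days 3 and 8. At day 3 against day 1 only ALDOC of the 31 passed, higher by 1.79 ± 0.18 (adjusted p = 0.00103), and no member was lower, against 2.0% higher and 0.316% lower over all genes. By the same limma test, 5 members, ALDOC among them, were higher and 1 was lower at an unadjusted p under 0.05. Between days 8 and 3, 14 members were higher and 4 lower, against 18.4% higher and 16.1% lower over all genes. At day 8 against day 1, 17 were higher and 6 lower, against 22.0% higher and 20.4% lower over all genes, with medians of 0.50 for the members and 0.02 for all genes. The 6 lower became 3 without the second DMSO array of day 8.

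In DMSO, ALDOC was higher at day 8 than at day 1 by 4.76 ± 0.18 (adjusted p = 3.08e-07). The fitted ENO2 difference was 4.29 ± 0.34 (adjusted p = 2.11e-05), with 1 of the 2 DMSO arrays of day 1 above background. Of the glycogen genes GBE1 was higher by 1.42 ± 0.25 (adjusted p = 0.00181) and PGM1 by 1.33 ± 0.12 (adjusted p = 3.35e-05). Among the glycolytic genes the others that were higher were GPI (1.15 ± 0.15), PGK1 (1.04 ± 0.15), PFKL (1.01 ± 0.22), SLC2A1 (0.99 ± 0.13), PFKP (0.94 ± 0.11), HK2 (0.56 ± 0.13), PKM (0.53 ± 0.12), LDHA (0.52 ± 0.14) and HK1 (0.37 ± 0.13), and FBP1 was higher by 0.50 ± 0.11. PDK1 passed too (adjusted p = 0.0462), at 1.58-fold against a day 1 group at background. Only 1 of its 2 DMSO arrays of day 8 was above background, so this fold is approximate and no bound. For PDK3 the brighter probe was higher (1.68 ± 0.15, adjusted p = 4.26e-05) and the other was lower (-0.38 ± 0.13, adjusted p = 0.0465). ALDOA did not pass on its brightest probe (0.39 ± 0.24) and was higher on the other (1.23 ± 0.13, adjusted p = 0.000106), and UGP2 likewise (0.10 ± 0.12 on the brightest and 1.32 ± 0.19, adjusted p = 0.000657, on another). TPI1 and GAPDH did not pass on their brightest probes and were higher on another (0.73 ± 0.16 and 0.51 ± 0.12), while the third GAPDH probe did not pass (0.25 ± 0.12). Another probe did not pass for HK2 (0.31 ± 0.16), HK1 (-0.04 ± 0.29) and TALDO1 (-0.15 ± 0.3). For PKM, of its other probes, that at 0.15 ± 0.19 did not pass and that at 0.44 ± 0.14 did. PCK2, like PDK3, gave probes of opposite direction, at 0.54 ± 0.11 on its brightest probe and -0.62 ± 0.18 on another. All 4 pentose phosphate genes were lower in DMSO at day 8 than at day 1, with differences of -0.91 ± 0.11 (adjusted p = 0.000176) for PGD, -0.69 ± 0.12 (adjusted p = 0.0017) for RPIA, -0.46 ± 0.14 (adjusted p = 0.0254) for TKT and -0.35 ± 0.11 (adjusted p = 0.034) for TALDO1. LDHB (-0.81 ± 0.11, adjusted p = 0.000378) and PFKM (-0.53 ± 0.13, adjusted p = 0.00869) were the other 2 that were lower.

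With PLX4720 the same span gave 13 members lower and 1 higher at day 8 against day 1, beside 7.5% lower and 8.62% higher over all genes. On the brightest probes the 3 deepest were PFKP (-1.05 ± 0.11, adjusted p = 0.00033), ALDOA (-0.86 ± 0.24, adjusted p = 0.0384) and HK2 (-0.80 ± 0.13, adjusted p = 0.00357). The other HK2 probe gave -0.25 ± 0.16 and did not pass, while the other ALDOA probe did (-0.65 ± 0.13). RPIA was the one higher gene (0.58 ± 0.12, adjusted p = 0.012). ALDOC differed by -0.02 ± 0.18 (adjusted p = 0.97) and PGM1 by 0.20 ± 0.12 (adjusted p = 0.282). The count of 13 is unsteady: it was 8 without the first or second PLX4720 array of day 1, 7 without the first of day 8 and 3 without the second of day 8, and RPIA was not called without any of these. The header of the first PLX4720 array of day 8 carries the word "mean", and nothing in the labels says whether it is an average.

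Of the 19 members lower with PLX4720 at day 8, 14 were higher over time in DMSO between days 1 and 8. Among the 14 are PDK3 and HK1, whose other probes were not higher over time (-0.38 ± 0.13 and -0.04 ± 0.29). The same overlap was not counted over all genes, so 14 cannot be called many or few. The drug and time comparisons share the day 8 DMSO arrays, so the overlap is no independent result, and their values stand side by side. ALDOC was -4.50 for drug against solvent at day 8 and 4.76 over time in DMSO, GBE1 -1.71 and 1.42, and SLC2A1 -2.81 and 0.99. ENO1 was -0.95 for drug against solvent and 0.17 over time, which did not pass.

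**Figure D3:**
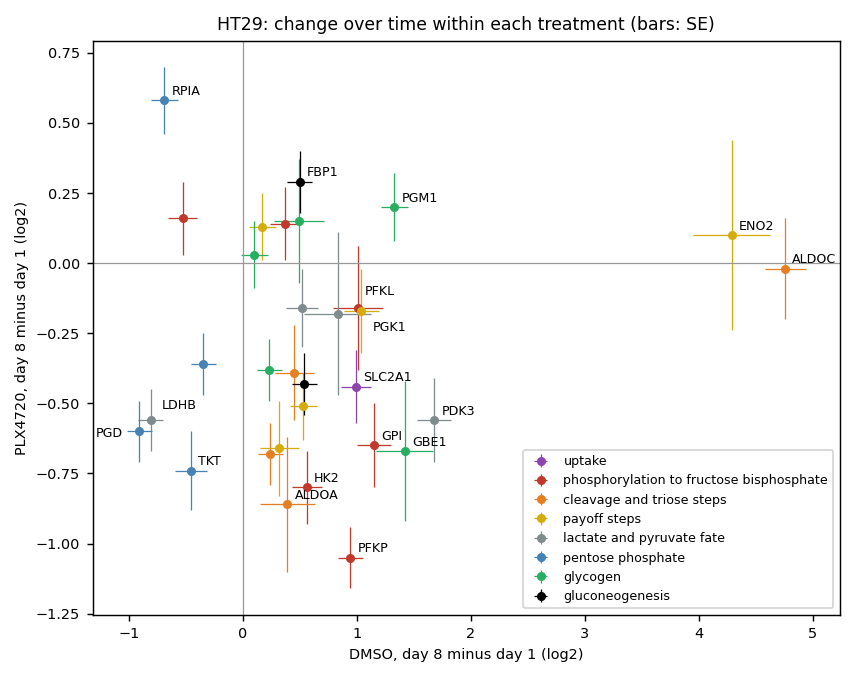
Day 8 minus day 1 in HT29 on the log2 scale, with PLX4720 (y axis) against DMSO (x axis), for the 31 members tested; points are genes, bars are ± SE of the fit and colours mark roles. ALDOC and ENO2 lie far to the right at 4.76 and 4.29 with DMSO and near 0 with PLX4720, and the pentose phosphate genes lie left of 0.

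In Colo-205 the drug was set against solvent with the days as blocks, and 2 of 29 members passed, both lower. None was higher, against 0.752% lower and 0.613% higher over all 11575 genes tested, with medians of -0.47 for the members and 0.02 for all genes. At an unadjusted p under 0.05 in the limma fit, 9 members were lower and 1 was higher. SLC2A1 read 9.57, 9.14 and 9.08 with PLX4720 against 11.60, 11.36 and 12.88 with DMSO at days 1, 3 and 10. SLC2A1 was lower with PLX4720 on each day, and widest apart at day 10. Over the days the difference was -2.69 ± 0.37 (adjusted p = 0.0385). HK2 read 6.94, 7.36 and 7.16 with PLX4720 against 8.60, 8.54 and 9.40 with DMSO in the same order of days. HK2 was lower on each day too (-1.70 ± 0.24, adjusted p = 0.0421). Neither gene passed without the arrays of day 1, or without those of day 3, fits that leave 2 days, or with no filter on dim probes. With 1 array a day and treatment there is no test within a day. The p-values over the days measure how the drug effect varied between days, not a spread between replicates. An effect that grew with the day thus widened its own SE, as for ENO2, with differences of 0.21, -0.31 and -3.82 at days 1, 3 and 10.

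Taken day by day, the members over 2-fold lower with PLX4720 in Colo-205 were 2 at day 1 and 2 at day 3, both times SLC2A1 and HK2, and 13 of 29 at day 10. Those over 2-fold higher were 0, 0 and 2. Over all genes the shares lower were 2.4%, 3.46% and 6.2% and the shares higher 2.66%, 3.58% and 5.07% at days 1, 3 and 10. For ALDOC, ENO2 and PFKP, day 10 with DMSO stood above the other arrays. ALDOC read 9.24, 10.00 and 10.09 with PLX4720 against 9.06, 10.15 and 12.81 with DMSO. ENO2 read 6.61, 6.77 and 6.20 with PLX4720 against 6.41, 7.07 and 10.02 with DMSO. PFKP read 10.14, 10.01 and 9.79 with PLX4720 against 10.66, 10.93 and 11.84 with DMSO. In all 3 genes the DMSO array of day 10 read highest of the 6, and for ALDOC and ENO2 the PLX4720 array of day 1 was slightly above the DMSO array of that day. GBE1 read 7.20, 6.99 and 6.69 with PLX4720 against 6.85, 7.11 and 9.53 with DMSO. PGD read 11.39, 11.62 and 11.82 with PLX4720 against 11.21, 11.11 and 10.58 with DMSO. RPIA read 9.21, 9.40 and 9.68 with PLX4720 against 8.99, 9.10 and 8.44 with DMSO. GBE1 was thus highest with DMSO at day 10, where PGD and RPIA read lowest with DMSO and were the 2 members over 2-fold higher with PLX4720.

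SLC2A3 was above background on 1 of the 18 arrays. It read 4.20, 4.17 and 4.32 with PLX4720 at days 1, 3 and 10 against 4.39, 4.44 and 9.06 with DMSO, and between 4.16 and 4.51 on every HT29 array. With PLX4720 at day 10 it was at least 23.0-fold lower than with DMSO, a bound from single arrays with no test. LDHB was above background on no Colo-205 array, where it read 4.28 to 4.51, and on all 12 HT29 arrays. Each line had its own BeadChip, so the line and the BeadChip cannot be told apart in that difference of level.

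The remaining paralogs and glycogen genes of Colo-205 are given at days 1, 3 and 10 in the same way, as single arrays with no test. HK1 read 10.23, 10.07 and 10.09 with PLX4720 against 10.70, 10.49 and 10.61 with DMSO. PFKM read 8.62, 9.09 and 8.67 with PLX4720 against 9.44, 9.32 and 9.25 with DMSO. PFKL read 7.67, 8.15 and 8.21 with PLX4720 against 7.11, 7.39 and 8.42 with DMSO. HK1 and PFKM read lower with PLX4720 on each day, and PFKL read higher at days 1 and 3 and lower at day 10. ALDOA read 12.53, 12.51 and 11.95 with PLX4720 against 12.74, 12.98 and 13.67 with DMSO. ENO1 read 13.73, 13.61 and 13.31 with PLX4720 against 14.00, 13.88 and 13.96 with DMSO. LDHA read 13.64, 13.33 and 13.12 with PLX4720 against 13.91, 13.80 and 14.13 with DMSO. These 3 read lower with PLX4720 on each day and were furthest apart at day 10. GPI read 10.86, 10.82 and 10.71 with PLX4720 against 10.97, 10.93 and 12.02 with DMSO. PGM1 read 10.80, 11.26 and 11.54 with PLX4720 against 10.55, 10.36 and 11.75 with DMSO. PYGL read 8.13, 8.23 and 8.49 with PLX4720 against 7.83, 8.22 and 9.05 with DMSO. For GPI the arrays of days 1 and 3 were close together and day 10 with DMSO stood higher, PGM1 was higher with PLX4720 at days 1 and 3 and lower at day 10, and PYGL was higher at day 1, level at day 3 and lower at day 10. FBP1 read 8.70, 9.24 and 9.46 with PLX4720 against 8.81, 9.23 and 9.57 with DMSO. PCK2 read 8.65, 8.70 and 9.29 with PLX4720 against 8.00, 8.42 and 8.97 with DMSO. PDK3 read 11.52, 11.54 and 11.36 with PLX4720 against 11.52, 11.53 and 12.02 with DMSO. FBP1 was within 0.11 of DMSO on each day, PCK2 was higher with PLX4720 on each day, and PDK3 differed at day 10. PDK1 passed the detection threshold on the DMSO array of day 10 alone (4.69), although the DMSO arrays of days 1 and 3 read 5.06 and 4.96, and it was not tested in Colo-205.

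With DMSO, 10 members were over 2-fold higher and 0 lower in Colo-205 at day 10 than at day 1, against 6.34% higher and 5.17% lower over all genes. ALDOC was higher by 3.75 and ENO2 by 3.61, GBE1 by 2.68, PFKL by 1.32 and SLC2A1 by 1.28 on the log2 scale. With PLX4720 over the same days, 0 were higher and 0 lower, against 3.86% higher and 3.74% lower over all genes. All of these are single arrays with no test.

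**Figure D4:**
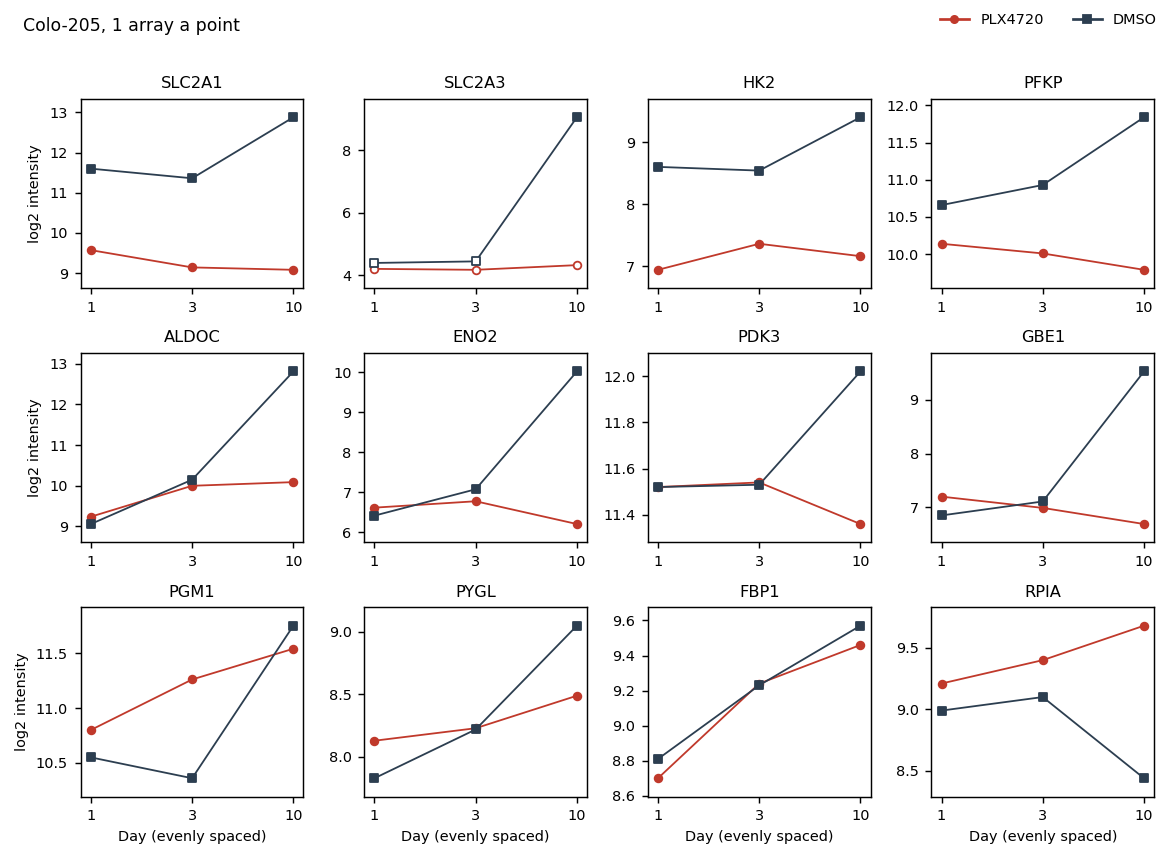
Normalized log2 intensity (y axis) on each Colo-205 array by day (x axis, days 1, 3 and 10), 1 array a point (open where not above background), PLX4720 and DMSO in separate colours, with panels on separate scales. SLC2A1 and HK2 lie apart at every day, and ALDOC, ENO2 and GBE1 with DMSO stand out at day 10 alone.

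The average drug effect differed between HT29 and Colo-205 for 2 of 31 members, both with the higher effect in HT29, against 2.43% higher and 1.55% lower over all 13659 genes tested. This fit gives each line the same drug effect on all its days, so a change of the effect between days counted as spread. The p-values measure that change too, and a gene with a steady effect passes more easily than one whose effect grew. At an unadjusted p under 0.05 in the limma fit, the effect was lower in HT29 for 3. The effect on FBP1 was higher in HT29 by 1.16 ± 0.14 (adjusted p = 0.000263) and that on PYGL by 1.05 ± 0.21 (adjusted p = 0.012). In HT29 both were higher with PLX4720 on all days, while in Colo-205 the effect over the days was -0.07 ± 0.16 for FBP1 and -0.08 ± 0.22 for PYGL, neither past the threshold. Without Colo-205 day 10, 1 of the 2 was called. The days averaged are not the same in the lines, and the medium differed too, which cannot be told apart from the line. For HK2 the effect differed by -0.97 ± 0.36 (adjusted p = 0.18) and for SLC2A1 by 0.77 ± 0.42 (adjusted p = 0.391), a miss that does not show the lines to act alike.

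Other genes of glucose use, 72 in a list outside the members, had 48 tested in HT29. With PLX4720, 7 were lower and 12 higher at day 1, beside 10.8% and 11.8% of all genes. At day 3 it was 7 lower and 8 higher, beside 7.53% and 8.95%, and at day 8 6 lower and 10 higher, beside 8.62% and 7.34%. The widest at day 8 were PFKFB4 (-3.40 ± 0.28, adjusted p = 6.69e-05) and PFKFB3 (-2.66 ± 0.22, adjusted p = 7.99e-05), which make the activator of phosphofructokinase, fructose 2,6-bisphosphate. At day 1 they were the ribokinase RBKS (2.05 ± 0.12, adjusted p = 1.73e-05) and the pyruvate dehydrogenase kinase PDK4 (1.70 ± 0.19, adjusted p = 0.000344). Over time in DMSO 16 were higher and 14 lower at day 8 than at day 1, beside 22.0% and 20.4% of all genes, with PFKFB4 (4.69 ± 0.28, adjusted p = 3.5e-06) and the glucose carrier SLC2A10 (2.45 ± 0.30, adjusted p = 0.000204) the widest. In Colo-205 1 of 49 was higher, GAA, the lysosomal enzyme that breaks glycogen (1.36 ± 0.20, adjusted p = 0.0471).

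A list of 13 genes of the hypoxia response outside glycolysis had 12 tested. With PLX4720 at HT29 day 8 11 were lower and 0 higher, at a median of -2.58 and beside 8.62% and 7.34% of all genes. In DMSO at day 8 against day 1 10 were higher and 0 lower, at a median of 2.98 and beside 22.0% and 20.4% of all genes. COXFA4L2, a mitochondrial protein of the hypoxia response, was at least 173-fold lower with PLX4720 at day 8, and ANGPTL4, a secreted lipase inhibitor, was lower too (-3.92 ± 0.27, adjusted p = 2.56e-05). With PLX4720 at day 1, 1 was lower and 3 were higher, beside 10.8% and 11.8% of all genes, with NDRG1 higher by 3.30 ± 0.18 (adjusted p = 1.25e-05). The part of these genes in the results was not tested, and the 2 comparisons share the day 8 DMSO arrays. Among regulators of glucose use, TXNIP, which glucose induces and which curbs glucose uptake, was higher with PLX4720 at day 1 (1.69 ± 0.11, adjusted p = 3.31e-05) and day 3 (1.93 ± 0.11) and lower at day 8 (-0.51 ± 0.11, adjusted p = 0.0151), and it was higher over time in DMSO (3.90 ± 0.11, adjusted p = 6.04e-08). MYC, a driver of glycolytic genes in many tumours, was lower at day 1 (-1.49 ± 0.22, adjusted p = 0.00154) and day 3 (-1.06 ± 0.22) with PLX4720, did not pass at day 8 (0.30 ± 0.22, adjusted p = 0.409), and was lower over time in DMSO (-1.51 ± 0.22, adjusted p = 0.00053).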

How the data were processed

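RNA was hybridised to 18 Illumina arrays. The deposited non-normalized table gives the probe intensity of each array, and the deposited detection p-values stand beside it, per the file headers; the cRNA kit was Ambion MessageAmp, per the labels' protocols, and the authors' scanning and background steps are not given in the sources used here. A second deposited table holds the authors' processed intensity values, with normalization not stated, and served as an alternative. Background was corrected with limma 3.58.1 (R 4.3.3; normexp on the detection p-values, offset 16), followed by quantile normalization over 18 arrays and log2. Probes were named by the platform annotation: of 47323 probes, 30113 had 1 gene symbol, 8 had several and were not named, and 17202 had none listed. Probes with detection p under 0.01 on at least 2 arrays of a fit were kept, and the brightest probe stood for its gene. limma's moderated test (lmFit, eBayes) was applied, with p-values adjusted by Benjamini-Hochberg across every gene tested and a threshold of 0.05: 6 HT29 group means in 1 fit, Colo-205 with day as a block, and a treatment-by-line term over all 18 arrays. A group not above background on all its arrays has only a bound, given as "at least N-fold" from the lowest signal of detected probes. Precision is limited by how many arrays there are. The fits were tested on simulated data with 200 changed genes. Replicate numbers were not used to pair the arrays: over 15 pairs of groups the deviations of same-numbered arrays correlated at -0.02 to 0.13. Such low correlations do not show that same-numbered arrays came from separate cultures or runs. The genes and lists were chosen with earlier results of these data known. Levels on every array are given for the 6 widest changes at HT29 day 8, paralogs of 1 step, members against the general direction, and 2 genes each of glycogen and the pentose branch. Non-members are the 2 widest of each list, except that DUSP6 alone is named of the MAPK output list.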

Additional observations from a re-analysis of the deposited data

Results flagged for a closer look

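For 20 members the drug effect in HT29 (PLX4720 minus DMSO, log2) differed between day 8 and day 1 by the test of the difference itself. In uptake and the upper steps the day 8 effect minus the day 1 effect was -1.44 for SLC2A1, -1.36 for HK2, -1.80 for GPI, -1.17 for PFKL, 0.69 for PFKM and -1.99 for PFKP. In the middle steps it was -1.26 for ALDOA, -4.77 for ALDOC, -0.83 for TPI1 and -0.91 for GAPDH. In the lower steps it was -1.21 for PGK1, -0.99 for PGAM1, -4.19 for ENO2 (groups at background on PLX4720 arrays) and -1.04 for PKM. Further members were PDK3 at -2.25, RPIA at 1.26, PGM1 at -1.13, GBE1 at -2.09, PYGL at -0.61 and PCK2 at -0.97. On its dimmer probe PDK3 differed by -0.81. The list rests on the brightest probes. Another probe did not pass for HK2 (-0.56 ± 0.23), PGAM1 (-0.71 ± 0.37), PCK2 (-0.40 ± 0.26) and PKM (-0.92 ± 0.27), though further PCK2 (-1.26 ± 0.24) and PKM (-0.94 ± 0.20) probes did. LDHA and UGP2 are not in the list but passed on other probes, at -0.91 ± 0.18 and -2.37 ± 0.27 for LDHA and -1.25 ± 0.27 for UGP2. Only SLC2A1, HK2, PFKP, PGAM1, PKM and PYGL of the 20 members had the same call on both days.

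The drug effect differed between HT29 and Colo-205 for FBP1, by 1.16, and for PYGL, by 1.05, by the treatment-by-line term.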

How the results depend on the processing

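Each count of members called was recomputed under other background corrections, offsets, normalizations, filters, probe rules and spread models, and without each array or day. With the dimmest detected probe of a gene, an alternative chosen after seeing the data, 5 members were lower at HT29 day 1, the drug effect was higher at day 8 for 1, 1 was lower in Colo-205 and 1 had a lower effect in HT29 than in Colo-205. The same probes turned the direction of PDK3 at day 1 (-0.28), HK1 at day 3 (0.46) and, in DMSO over time, PDK3 (-0.61 at day 8 minus day 3, -0.38 at day 8 minus day 1), PCK2 (-0.67 and -0.62) and HK1 (-0.04 at day 8 minus day 1). In DMSO at day 3 minus day 1, 2 members were higher without background correction and in the authors' table, and 3 with an intensity trend and robust variances. With PLX4720 at day 8 minus day 1, 2 were higher without background correction and with the trend. In Colo-205, 0 were lower with no filter on dim probes and 1 with the mean of all probes. Between lines, 1 had a lower effect in HT29 without background correction, in the authors' table and with the trend. The cause was not tested. Leaving out 1 array or day, lower and higher counts ranged from 6 to 9 and 5 to 6 at HT29 day 1, 7 to 17 and 2 to 3 at day 3, 15 to 20 and 4 to 4 at day 8, and 13 to 17 and 1 to 2 for the day 8 minus day 1 effect. In DMSO they ranged from 0 to 0 and 1 to 1 (day 3 minus day 1), 3 to 4 and 10 to 16 (day 8 minus day 3), and 3 to 6 and 14 to 17 (day 8 minus day 1). With PLX4720 they ranged from 3 to 14 and 0 to 1, in Colo-205 from 0 to 2 and 0 to 0, and between lines from 0 to 0 and 1 to 2. A fit without an array leaves its group 1 array, assumed to vary like the other groups. With the replicate number as a block, which is a number only, 8 members were lower and 5 higher at day 1, 14 and 3 at day 3, and 19 and 4 at day 8, and no count moved by over 1.5 times. A gene result here is 1 member in 1 comparison under 1 other setting, on the same arrays. Of those past the threshold in the main fit, 1527 kept direction and call, 69 missed the threshold and 6 reversed. The fits without 1 array or day, whose counts ranged as given above, are not in this tally. No scaling moved the median of all genes by more than 0.1.

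Limits: 2 arrays a group in HT29 and 1 in Colo-205 set the precision, and a member that misses the threshold is not shown to be unchanged. ENO2, PDK1 and SLC2A3 were at background on many arrays. Where every array of a group was, the fold is a bound, and where 1 of 2 was, the fitted difference is only approximate. Line, BeadChip and medium cannot be told apart for levels.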
